A study of Arvicanthis niloticus with 59 samples.

Results

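The myosin heavy chains of striated muscle were 9 of the 18970 genes in the tables: Myh1, Myh2, Myh3, Myh4, Myh6, Myh7, Myh7b, Myh8 and Myh13. They were taken by gene symbol, and all 9 symbols were present. RNA came from a diurnal rodent, Arvicanthis niloticus or Nile grass rat, as 59 libraries of polyadenylated RNA from 48 sites in 22 organs. All tissue was labelled healthy and untreated, so the groups are anatomical sites and no treatment, mutant or disease group exists. Animal T3F supplied 38 libraries, T173F supplied 12, T426 supplied 8, and T424 supplied 1, the testis; the labels used here give no age and no strain. Skeletal muscle, femur bone and sciatic nerve had a library each from T3F and T426. The T3F muscle title adds the word femur, while the T426 title names no particular muscle, so animal and muscle cannot be told apart within that pair. The heart was sampled as a right atrium of T3F and a right ventricle of T173F. The esophagus library of T3F is titled as the Barrett's esophagus junction, and the trachea came from T173F.

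A myosin heavy chain is the motor subunit of the thick filament: its head binds actin and splits ATP, and its tail assembles into the filament. Striated muscle uses a family of these chains that set how fast a fibre shortens. In rodent limb muscle Myh4, Myh1 and Myh2 encode the fast IIb, IIx and IIa chains and Myh7 the slow chain, which is also the beta chain of the heart. Myh6 encodes the alpha chain of the heart, Myh3 the embryonic chain and Myh8 the perinatal chain of developing muscle. Myh13 is the chain of extraocular muscle in mammals, and Myh7b is an ancient slow-type chain of heart and specialised fibres.

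The chains are near-identical copies over long stretches, and near-identical copies share reads. RSEM divides such a read among the genes it matches, so the levels of neighbours in sequence are uncertain, most of all where a weak chain sits beside a strong relative. Among libraries with at least 10 counts, the count was often not whole (tolerance 0.005), as were 61.43% of all gene values at that minimum. It was not whole in 36 of 37 for Myh1, 53 of 54 for Myh6 and 49 of 50 for Myh8. For Myh7 it was 39 of 42, Myh2 22 of 25, Myh4 26 of 32, Myh3 12 of 16, Myh7b 40 of 54 and Myh13 14 of 23. Outside the family Myh9 had 57 of 59, Myh14 56 of 58, Myh11 55 of 59, Myh10 45 of 59 and Myh15 0 of 13. The measure thus did not set the striated chains apart. The length implied by count and TPM also differed between chains whose proteins are of like size. It was 4.12% of that of the non-muscle chain Myh9 for Myh3, 12.3% for Myh2, 13.5% for Myh1, 14.4% for Myh13, 14.5% for Myh8, 21.1% for Myh4, 32.9% for Myh7, 39.2% for Myh7b and 42.5% for Myh6. Levels are therefore given in TPM, abundance per length of transcript model, and a short model makes a level rest on few reads. Of the 9 members, the RefSeq gene table of this species lists 3 by these symbols (Myh7b, Myh8 and Myh13).

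The depth of the libraries ran from 678819 to 41309569 expected counts (median 16406604), and from 1691561 to 3827321 in the T426 libraries. A few libraries carried genes of another tissue. The library labelled lung T3F held 130173 TPM of 8 hepatocyte markers, and the library labelled liver T3F held 31563 TPM of 6 alveolar markers. Pancreas T173F held 1424 TPM of 7 acinar markers, against 341741 TPM in pancreas T3F. Sciatic nerve T426 held 74326 TPM of the same acinar markers, and femur bone T426 held 22507 TPM of 7 spermatid markers. Calls of members that changed without these libraries are given beside each test. Where a site has libraries of 2 animals, its level in a test rests on those 2 libraries only. The spread behind a p-value was estimated over all replicated sites together. A small p-value therefore does not show that the 2 libraries of that site were alike.

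Summed over the 9 chains, 46 of 59 libraries reached 10 TPM, 14 reached 100 TPM and 8 reached 1000 TPM. Those 8 were skeletal muscle T3F with 69640 TPM and T426 with 63497 TPM, right ventricle with 28743 TPM, esophagus junction with 21276 TPM, right atrium with 12278 TPM, trachea with 9312 TPM, femur bone T3F with 4927 TPM and sciatic nerve T3F with 2867 TPM. Sciatic nerve T426 followed with 805 TPM, femur bone T426 with 564 TPM and bone marrow with 231 TPM. The skeletal muscle, heart, esophagus and trachea libraries thus stood at the top, and bone and nerve libraries followed. The part of attached muscle in the trachea library was not tested. In bulk tissue, fewer cells of a type and less RNA per cell cannot be told apart.

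**Figure D1:**
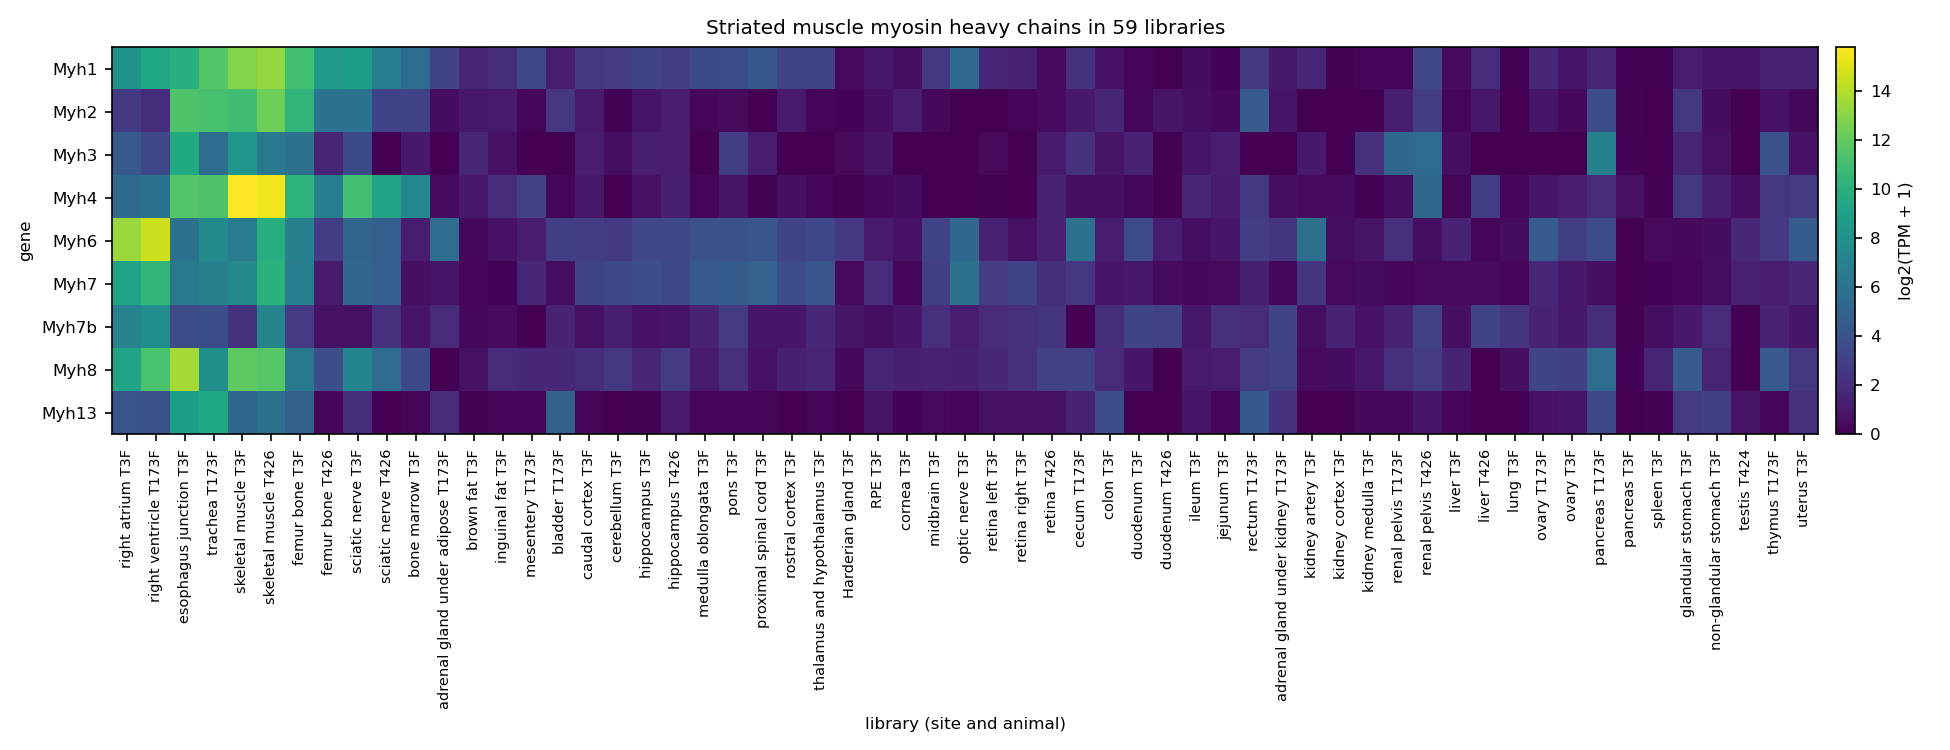
Level of each of the 9 striated myosin heavy chains (vertical axis) in each of the 59 libraries (horizontal axis, site and animal), with log2(TPM + 1) as colour. Heart columns are brightest for Myh6 (10623 TPM in the atrium and 24023 TPM in the ventricle), the esophagus column for Myh8 (13108 TPM) and the skeletal muscle columns for Myh4 (56061 TPM in T3F and 43670 TPM in T426).

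Each chain spanned several orders of magnitude across the 59 libraries, and the widest presence was not always that of the strongest chain. Myh4 had a median of 0.810 TPM and reached 1000 TPM in 6 libraries. Myh1 had a median of 2.50 TPM and reached 1000 TPM in 5 libraries, as did Myh2 with a median of 0.781 TPM. Myh8 reached 1000 TPM in 4 libraries, and it was the most widespread, with at least 1 TPM in 47. Myh6 had at least 1 TPM in 44 libraries and the highest median, 6.14 TPM. Myh7 had a median of 1.78 TPM and at least 1 TPM in 34 libraries. Myh3, Myh7b and Myh13 never reached 1000 TPM, and Myh3 was at 0 in 21 libraries.

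Ordered by site mean, the fast chains had skeletal muscle first. Myh4 averaged 49865 ± 8762 TPM in skeletal muscle (SD, n = 2), followed by 2991 TPM in the esophagus, 2699 TPM in the trachea and 1374 ± 1099 TPM in sciatic nerve (SD, n = 2). Myh1 averaged 8291 ± 1518 TPM in skeletal muscle (SD, n = 2), followed by 3013 TPM in the trachea and 1227 ± 1215 TPM in femur bone (SD, n = 2). For Myh4 the esophagus and the trachea, next to each other in that order, lay above both nerve libraries but less than 2 SD above the nerve mean. Myh2 averaged 3446 ± 2097 TPM in skeletal muscle (SD, n = 2), and the esophagus with 2799 TPM and the trachea with 2321 TPM lay within that spread.

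The other chains had other sites first. Myh8 was led by the esophagus with 13108 TPM, then skeletal muscle with 3480 ± 430 TPM (SD, n = 2) and the right ventricle with 2471 TPM. Myh3 was led by the esophagus with 763 TPM, then skeletal muscle with 194 ± 164 TPM and pancreas with 60.6 ± 85.6 TPM (SD, n = 2 each) and the trachea with 46.8 TPM, the last 2 within 1 SD of the muscle mean. The right ventricle led for the 3 cardiac and slow-type chains. Skeletal muscle averaged 514 ± 600 TPM of Myh6, 657 ± 684 TPM of Myh7 and 73.5 ± 98.3 TPM of Myh7b (SD, n = 2), so the right ventricle (1326 TPM) and the right atrium (577 TPM) lay within 1 SD of the muscle mean for Myh7. For Myh6 both chambers lay outside that range, and for Myh7b only the ventricle did. Myh13 was led by the trachea with 692 TPM and the esophagus with 449 TPM, and skeletal muscle averaged 49.4 ± 15.4 TPM (SD, n = 2).

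Skeletal muscle was tested first, against the mean of the 9 other sites that had libraries of 2 animals. All 9 chains were higher in skeletal muscle, where 6.19% of the 17564 genes tested were called higher. Calls required both an adjusted p below 0.05 and a log2 fold change of 1 or more in size (edgeR quasi-likelihood test, Benjamini-Hochberg over all genes tested). The median log2 fold change of the 9 members was 8.63, against -0.46 for all genes.

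Among the fast chains, Myh4 had 56061 TPM in muscle T3F and 43670 TPM in muscle T426, and in the 7 other sites apart from femur bone and sciatic nerve it stayed at or below 38.3 TPM. Its log2 fold change was 13.43 ± 1.21 (SE; adjusted p = 2.43e-06 by edgeR). Myh1 had 7217 TPM in muscle T3F and 9364 TPM in muscle T426, with a log2 fold change of 11.09 ± 0.84 (SE; adjusted p = 4.489e-07 by edgeR). Both muscle libraries lay above every library of the 9 other sites for these 2 chains. Myh2 had 1963 TPM in muscle T3F and 4928 TPM in muscle T426, with a log2 fold change of 10.87 ± 0.86 (SE; adjusted p = 6.769e-07 by edgeR). The muscle libraries did not overlap with those of any other replicated site for Myh2, since the highest was femur bone T3F with 1273 TPM. How many of all genes lay apart in this way was not counted.

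The chains of developing muscle were present in both muscle libraries. Myh8, the perinatal chain, had 3784 TPM in muscle T3F and 3176 TPM in muscle T426 (log2 fold change 9.68 ± 0.76, SE; adjusted p = 6.581e-07 by edgeR). Myh3, the embryonic chain, had 310 TPM in T3F and 78.3 TPM in T426 (7.03 ± 0.96, SE; adjusted p = 0.000251 by edgeR). Myh8 thus exceeded Myh3 more than 10-fold in both, and Myh3 was the least even of the fast and developmental chains between the animals. Muscle Myh3 in T426 lay below pancreas T173F, which had 121 TPM. Myh13, the extraocular chain, had 38.5 TPM in T3F and 60.3 TPM in T426 (6.88 ± 0.99, SE; adjusted p = 0.0004378 by edgeR). Femur bone T3F, with 28.2 TPM, was the next highest of the replicated sites for Myh13.

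The slow and cardiac chains were also called higher in skeletal muscle, but the 2 animals differed widely. Myh7, the slow chain, had 172.9 TPM in T3F and 1140 TPM in T426 (log2 fold change 8.63 ± 0.70, SE; adjusted p = 8.201e-07 by edgeR). Myh6 had 89.3 TPM in T3F and 938 TPM in T426 (6.74 ± 0.86, SE; adjusted p = 9.682e-05 by edgeR), and femur bone T3F with 115 TPM lay above the lower of them. Myh7b had 4.00 TPM in T3F and 143 TPM in T426 (5.02 ± 0.81, SE; adjusted p = 0.0009104 by edgeR). The T3F level of Myh7b lay below that of duodenum T3F, 8.99 TPM. Without the T426 muscle library the log2 fold change of Myh7b was 1.38 and its adjusted p by edgeR was 0.9244, and limma gave 4.02 with an adjusted p of 0.1073.

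Over all 10 replicated sites jointly, 9 of 9 members differed among sites, where 41.4% of the genes tested were called (edgeR quasi-likelihood F test). The largest fitted difference between sites ran from 7.36 on the log2 scale for Myh7b to 18.51 for Myh4. Without the T426 muscle library 8 members were called, and Myh7b was the exception. By limma 6 members were called, where 4528 of 17564 genes were, and Myh6, Myh7b and Myh13 were not (adjusted p = 0.05947, 0.2808 and 0.05884). The other class II heavy chains did not follow the striated family in muscle. The non-muscle chains Myh9 and Myh10 had log2 fold changes of -1.002 (adjusted p = 0.3963 by edgeR) and -1.20 (0.2822), the smooth muscle chain Myh11 had 0.33, and Myh14 had -0.42. None of the 4 was called, and Myh15 was at 0 TPM in both muscle libraries.

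Of the partner genes of the chains, those of fast and slow fibres and of the thick filament were mostly called higher in muscle, while most cardiac and extraocular ones were not. Of 12 thin filament, light chain, calcium and Z-disc genes of fast fibres, 12 were called higher (median log2 fold change 10.92). Among them the Z-disc gene Myoz1 had 11.29 ± 0.54 (SE), the fast regulatory light chain Mylpf 10.54 ± 0.57 and the fast-fibre actinin Actn3 9.63 ± 0.57. Of 10 partners of slow fibres, 9 were called higher (median 7.59), and Myl6b was not. Of 14 genes of thick filament assembly, 12 were called higher (median 9.17), including the myosin chaperone Unc45b with 10.19 ± 0.59, the methyltransferase Smyd1, which acts on myosin folding, with 8.71 ± 0.48, and the thick filament protein Mybph with 11.44 ± 0.58. The heart genes Mybpc3 and Mybphl were the 2 that were not called. Of 4 ubiquitin ligases of muscle atrophy, 3 rose, including Trim63 with 9.47 ± 0.81. Of 7 tested muscle formation genes, 6 rose, led by the myogenic factors Myf6 with 11.28 ± 0.70 and Myod1 with 9.07 ± 0.90. Of 14 fibre type transcription factors, 11 rose, including Tbx15 with 9.57 ± 0.82. Of 10 tested cardiac partners, 3 were called higher (median 0.25), and of 8 genes of extraocular and jaw muscle 3 were (median 2.20), while the cardiac and extraocular chains Myh6, Myh7b and Myh13 were called. Each gene given here with its own fold change passed the call threshold in the same edgeR contrast.

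Pancreatic acinar genes moved with this contrast too: 6 of 7 tested acinar markers were called higher in muscle. Their summed level was 12847 TPM in muscle T3F and 119 TPM in muscle T426, and it was 341741 TPM in pancreas T3F. Their part in the members' result was not tested. The 9 skeletal fibre markers summed to 153030 TPM in muscle T3F and 134666 TPM in muscle T426, and the cardiomyocyte markers to 1.61 TPM in T3F and 6.37 TPM in T426, with 4 and 5 of those 8 at 0.

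The makeup of the summed chains was alike for the leading chain and unlike below it. Myh4 made up 68.8% of the summed TPM in muscle T426 and 80.5% in muscle T3F. Myh1 made up 14.7% in T426 and 10.4% in T3F, Myh2 made up 7.76% in T426 and 2.82% in T3F, and Myh8 made up 5.001% in T426 and 5.43% in T3F. The order Myh4, then Myh1, was shared, and Myh8 came before Myh2 in T3F only.

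Between the 2 muscle libraries the slow-type chains differed most. The T426 level was 35.7 times the T3F level for Myh7b, 10.5 times for Myh6 and 6.59 times for Myh7, and 2.51 times for Myh2. It was 1.57 times for Myh13, 1.30 times for Myh1, 0.839 times for Myh8, 0.779 times for Myh4 and 0.253 times for Myh3. Partners of slow fibres went the same way: 10 of 10 were higher in T426, with a median ratio of 13.9 (range 1.34 to 40.9). The slow regulatory light chain Myl2 had a ratio of 40.9, the slow troponin Tnni1 19.4 and the slow troponin Tnnc1 14.3. Of 12 partners of fast fibres, 3 were higher in T426, with a median ratio of 0.850 (range 0.345 to 1.09). These are ratios of 1 library to 1 library, with no replicate, and the animal, the muscle taken and the depth of the library differ between them.

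**Figure D2:**
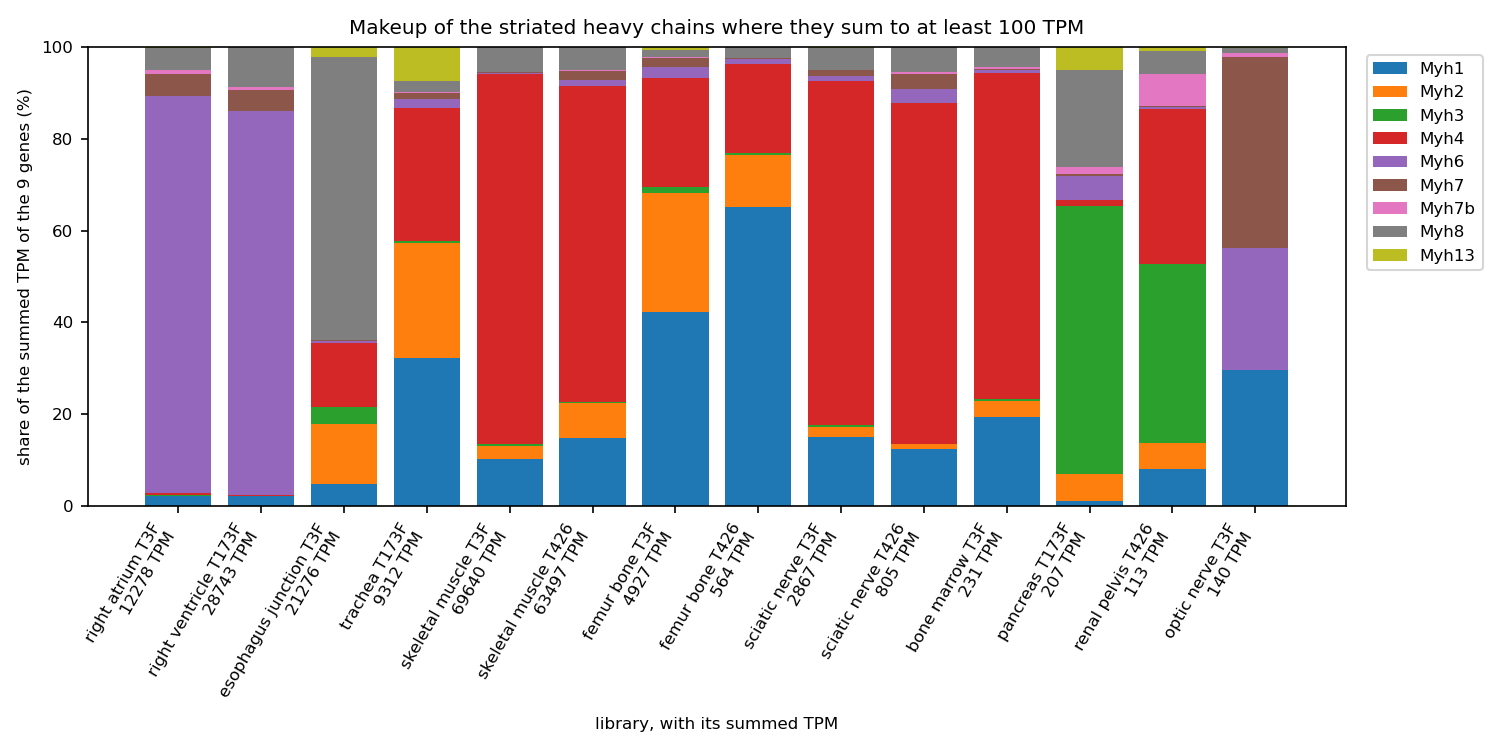
Share of each chain in the summed TPM of the 9 members (percent, stacked bars from 0), for the 14 libraries whose sum is at least 100 TPM, with that sum under each name. Myh6 fills 86.5% of the right atrium bar and 83.6% of the right ventricle bar, Myh8 61.6% of the esophagus bar, and Myh4 80.5% and 68.8% of the skeletal muscle bars of T3F and T426.

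The heart was set against skeletal muscle to show how the cardiac and skeletal sets differ. Myh6, the alpha chain, had 10623 TPM in the right atrium and 24023 TPM in the right ventricle, against 89.3 TPM and 938 TPM in skeletal muscle. Both heart values of Myh6 lay above both muscle values, and how many of all genes did so was not counted. The difference, atrium and ventricle averaged, was 4.58 ± 1.94 on the log2 scale (SE; adjusted p = 0.549 by edgeR) and did not pass the test, while DESeq2 called it (adjusted p = 0.03187). Myh6 made up 86.5% of the summed chains in the atrium and 83.6% in the ventricle.

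The fast chains had fewer TPM in heart than in skeletal muscle. Myh2 had 5.53 TPM in the atrium and 3.26 TPM in the ventricle, against 1963 TPM and 4928 TPM in skeletal muscle, a log2 difference of -10.16 ± 2.06 (SE; adjusted p = 0.04538 by edgeR). It was the single member called, lower, where 0.317% of the 18323 genes tested were called lower and 0.147% higher. The call of Myh2 was lost with the size factors of DESeq2 in edgeR (adjusted p = 0.05273) and when the right atrium, the right ventricle, muscle T3F or muscle T426 was left out, though the difference stayed between -9.61 and -10.71. Myh4 had 41.8 TPM in the atrium and 66.3 TPM in the ventricle, against 56061 TPM and 43670 TPM in skeletal muscle (-10.55 ± 2.77, SE; adjusted p = 0.1433 by edgeR). Myh1 had 276 TPM in the atrium and 618 TPM in the ventricle, against 7217 TPM and 9364 TPM in skeletal muscle (-4.92 ± 1.61, SE; adjusted p = 0.2931 by edgeR). The heart and muscle values of these 3 chains did not overlap. With so few libraries on each side this carries little weight, and how many of all genes did so was not counted. At an unadjusted p below 0.05, 5 of the 9 members differed in edgeR, as did 1396 of the 18323 genes tested. DESeq2 called 4 members (Myh1, Myh2 and Myh4 lower, Myh6 higher), where it called 576 genes lower and 470 higher. The limma fit called Myh2 and Myh4, where it called 105 genes lower and 60 higher. Without liver T3F, lung T3F and pancreas T173F edgeR called the same 2 members, where 288 of 18193 genes were called lower. Without 8 libraries whose marker genes depart from their labels, edgeR called 4 lower (Myh1, Myh2, Myh4 and Myh13), where 325 of 18070 genes were. These 8 were liver T3F, lung T3F, pancreas T173F and the T426 libraries of retina, hippocampus, femur bone, sciatic nerve and renal pelvis. They are not every such library. Muscle T3F and sciatic nerve T3F, which held acinar markers, and the kidney artery library, which held cardiomyocyte markers, stayed in.

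The remaining chains showed smaller gaps. Myh7, the beta chain, had 577 TPM in the atrium and 1326 TPM in the ventricle, against 172.9 TPM and 1140 TPM in skeletal muscle, and the values overlapped (0.01 ± 1.21, SE). Myh7b had 129 TPM in the atrium and 212 TPM in the ventricle, against 4.00 TPM and 143 TPM in muscle (0.83 ± 1.502, SE). Myh8 had 589 TPM in the atrium and 2471 TPM in the ventricle, against 3784 TPM and 3176 TPM in muscle (-2.18 ± 1.38, SE; adjusted p = 0.8758 by edgeR). By TPM Myh8 made up 4.80% of the summed chains in the atrium and 8.60% in the ventricle, against 4.70% and 4.61% for Myh7. By counts the order turned in both chambers: Myh8 took 1.76% of the summed counts in the atrium and 3.15% in the ventricle, against 3.88% and 3.90% for Myh7. Reads shared with Myh6 were not separated out in the deposited counts, so how much of the heart level of Myh8 and Myh1 came from shared reads was not tested.

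Several partner genes of the chains were called in this comparison. Of 11 cardiac partners, 5 were called higher in heart (median log2 difference 9.61): the cardiac myosin binding protein Mybpc3 had 10.72 ± 1.16 (SE), the cardiac troponin Tnni3 8.84 ± 1.36 and the atrial light chain Myl4 9.61 ± 1.47. Of 12 fast fibre partners, 9 were called lower in heart (median -12.95), led by Mylpf with -13.29 (adjusted p = 0.002456 by edgeR) and Myoz1 with -10.67 ± 1.26 (SE). Among thick filament genes, Mybph (-15.30 ± 1.71), Mybpc2 (-11.67 ± 1.74) and Mybpc1 (-12.12 ± 2.04) were lower in heart. All calls are from the same edgeR model, in which atrium and ventricle, with 1 library each, are assumed to vary like the replicated sites.

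The right atrium and the right ventricle came from different animals, so chamber and animal cannot be told apart. Myh6, Myh7, Myh7b and Myh8 each had fewer TPM in the atrium: Myh6 with 10623 TPM against 24023 TPM in the ventricle, Myh7 with 577 TPM against 1326 TPM, Myh7b with 129 TPM against 212 TPM and Myh8 with 589 TPM against 2471 TPM. The log2 difference was -0.88 ± 2.38 for Myh6 and -1.74 ± 1.92 for Myh8 (SE). With the animal as a replicate block the sign turned for 3 of these 4, to 2.55 ± 2.67 for Myh6, 0.21 ± 2.09 for Myh7 and 0.70 ± 2.27 for Myh7b (SE). By edgeR 0 of 9 members were called, where 0% of genes were called in either direction; 0 members had an unadjusted p below 0.05, and DESeq2 and limma also called 0. The TPM ratio of Myh6 to Myh7 was nearly equal in both chambers, 18.4 in the atrium and 18.1 in the ventricle, against 0.517 in muscle T3F and 0.822 in muscle T426. The 9 skeletal fibre markers summed to 4829 TPM in the atrium and 12077 TPM in the ventricle. These markers include Acta1 and Ckm. In heart against skeletal muscle 6 of the 9 were called lower by edgeR (median log2 difference -10.67). Acta1 (-4.64), Ckm (-3.63) and Ryr1 (-5.93) were not called. The sums therefore do not measure skeletal fibres in the chambers.

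The esophagus library was led by the perinatal chain. Myh8 had 13108 TPM in the esophagus junction, against 3784 TPM and 3176 TPM in skeletal muscle, and it made up 61.6% of the summed chains there. Myh3 had 763 TPM in the esophagus, against 310 TPM and 78.3 TPM in muscle, and the esophagus held the highest Myh3 and Myh8 levels of the 59 libraries. Myh13 had 449 TPM in the esophagus, against 38.5 TPM and 60.3 TPM in muscle. Myh4 went the other way, with 2991 TPM in the esophagus against 56061 TPM and 43670 TPM in muscle, and Myh1 had 1014 TPM against 7217 TPM and 9364 TPM. Myh2 had 2799 TPM in the esophagus and fell between the 2 muscle libraries, 1963 TPM and 4928 TPM.

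With a single esophagus library these differences did not pass the test. The log2 difference was 1.32 ± 1.56 for Myh8, 1.24 ± 1.95 for Myh3, 2.67 ± 1.79 for Myh13 and -4.67 ± 2.93 for Myh4 (SE, edgeR over all libraries). By edgeR 0 of 9 members were called higher, where 0.158% of genes were, and 0 lower, where 0% were. At an unadjusted p below 0.05 edgeR gave 0 members, DESeq2 gave 4 with 0 called, and limma called 0. None of 12 fast fibre partners was called (median log2 difference -2.85), nor any of 10 slow fibre partners (median 0.09). The heart, esophagus and femur comparisons with muscle share the same 2 muscle libraries.

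The trachea library had its own mixture. Myh1 led with 3013 TPM, followed by Myh4 with 2699 TPM and Myh2 with 2321 TPM, which were 32.4%, 29.0% and 24.9% of the summed chains. By counts the order of the first 2 turned: Myh4 took 37.7% of the summed counts (95% Wilson interval 37.4% to 38.0%) and Myh1 took 26.8% (26.5% to 27.1%). These intervals cover counting error only. Myh13, the extraocular chain, had 692 TPM in the trachea, the highest of the 59 libraries, and 449 TPM in the esophagus, the next. In the other 57 libraries Myh13 was at or below 60.3 TPM. The 9 skeletal fibre markers summed to 17355 TPM in the trachea and 38948 TPM in the esophagus.

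**Figure D3:**
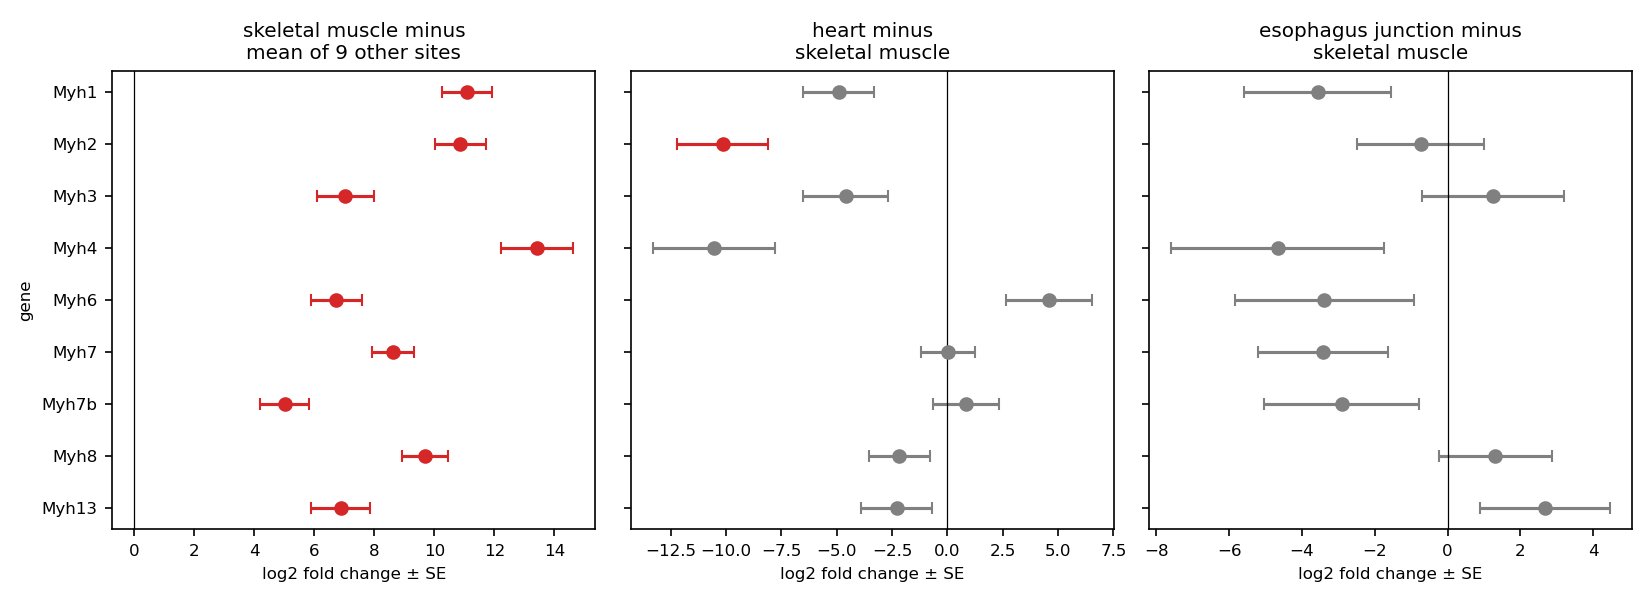
Log2 fold change (points) with its SE (bars) of each of the 9 chains in 3 contrasts: skeletal muscle minus the mean of 9 other sites, heart minus skeletal muscle, and esophagus junction minus skeletal muscle; red marks called genes and grey the others, and the horizontal scales differ. All 9 chains are red and above 0 in the first, Myh2 alone is red, below 0, in the next (-10.16), and none is red in the last.

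Femur bone libraries carried striated chains at a level that differed widely between the animals. Myh1 had 2086 TPM in T3F and 368 TPM in T426, Myh2 had 1273 TPM and 63.5 TPM, and Myh4 had 1175 TPM and 109 TPM, in that order of animals. Against the mean of the 8 replicated sites other than muscle, 8 of 9 members were called higher in femur bone, where 8.98% of genes were. Myh1 had a log2 fold change of 9.37 ± 0.85 (SE; adjusted p = 6.409e-06 by edgeR), Myh2 9.37 ± 0.88 (8.031e-06) and Myh4 7.77 ± 1.13 (0.000331). Myh7 (5.35), Myh13 (5.31), Myh3 (4.47), Myh6 (4.06) and Myh8 (3.81) were also called, with adjusted p-values by edgeR of 0.0001868 to 0.01398, and Myh7b (0.76 ± 1.08, SE) was not. Without the T3F femur library, which leaves 1 femur library, the calls of Myh3, Myh6, Myh7, Myh8 and Myh13 did not hold. Limma called 3 members higher, where it called 670 of 17564 genes higher.

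The fibre set in the femur library of T3F differed from that in the muscle of the same animal. Myh1, not Myh4, led, with 42.3% of the summed chains, followed by Myh2 with 25.8% and Myh4 with 23.9%. Relative to muscle T3F, the femur level was 2.10% for Myh4 and 2.13% for Myh8, 28.9% for Myh1, 64.8% for Myh2 and 58.6% for Myh7. It was 129% for Myh6 and 146% for Myh7b. The slow partners were above the muscle level, with 215% for Tnnt1, 222% for Tnni1 and 267% for Myl2, while the fast partners Tnnt3 and Mylpf were at 9.65% and 7.45%. In T426 the same ratio was 3.93% for Myh1, 1.29% for Myh2, 0.250% for Myh4 and 0.104% for Myh7. Relative to muscle of the same animal, the slow-type excess of the T3F femur was thus not present in T426. The muscle libraries themselves differed in slow genes: Tnnt1 had 429 TPM in muscle T3F and 5325 TPM in muscle T426. In femur bone Tnnt1 had 923 TPM in T3F and 102 TPM in T426, beside 2433 TPM and 605 TPM of Tnnt3. Myh1 led in both femur libraries, with 65.2% of the summed chains in T426.

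**Figure D4:**
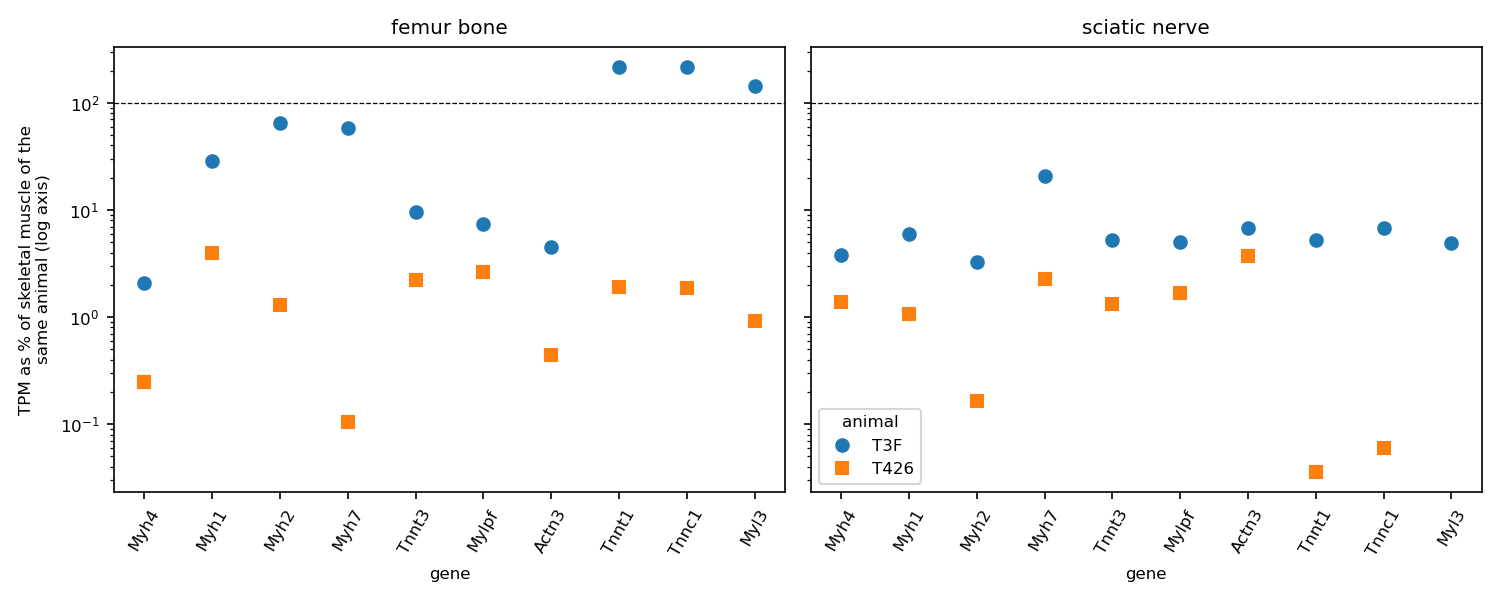
TPM of 4 chains and 6 partner genes in femur bone and in sciatic nerve as a percentage of the TPM in skeletal muscle of the same animal (log axis, circles T3F, squares T426, dashed line at 100%). In femur bone T3F the slow partners lie above the line (Tnnt1 and Tnnc1 at 215%) while Myh4 lies at 2.10%; Myl3 in sciatic nerve T426 is at 0 TPM and is not drawn.

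Tested directly, skeletal muscle exceeded femur bone most for Myh4 (log2 difference 6.52 ± 2.56) and Myh8 (6.30 ± 1.73, SE; adjusted p = 0.07209 by edgeR). By edgeR 0 of 9 members were called higher in muscle, where 0.609% of genes were. At an unadjusted p below 0.05 edgeR gave 4 members, where it gave 3444 of 17564 genes. Over all genes tested, DESeq2 called 1016 higher in muscle and limma 276. Without liver T3F, lung T3F and pancreas T173F edgeR called 1234 of 17711 genes higher in muscle. DESeq2 called 4 (Myh4, Myh7, Myh7b and Myh8), limma called 0, and edgeR called Myh8 when either pancreas library was left out. Without liver T3F, lung T3F and pancreas T173F edgeR called 3 (Myh7, Myh7b and Myh8). The set without the 8 libraries listed with the heart contrast leaves 1 femur library. The 6 tested bone and marrow markers were all called higher in femur bone against the 8 other sites, and the marrow genes summed to 15018 TPM in femur T3F and 8597 TPM in femur T426. The 9 skeletal fibre markers summed to 15505 TPM in femur T3F and 3348 TPM in femur T426. Among the 7 spermatid markers, 3 were called higher in femur bone too, with 66.0 TPM in femur T3F and 22507 TPM in femur T426 in sum. Of 6 fat cell markers 5 were called higher in femur bone (median log2 fold change 4.66), with 233 TPM in femur T3F and 992 TPM in femur T426 in sum and 0 of them at 0. Of 6 tested cardiomyocyte markers 2 were called higher, and the 8 summed to 21.5 TPM in femur T3F and 13.02 TPM in femur T426, with 2 and 4 at 0. The part of these cell types and of attached muscle in the femur values was not tested.

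Sciatic nerve was led by Myh4, as was skeletal muscle. Myh4 had 2151 TPM in T3F and 598 TPM in T426, which was 75.0% and 74.3% of the summed chains. Myh1 had 430 TPM in T3F and 101 TPM in T426, and Myh8 had 139 TPM in T3F and 43.8 TPM in T426. Against the mean of the 8 other non-muscle sites, 5 of 9 members were called higher in sciatic nerve, where 5.2% of genes were. Myh4 had a log2 fold change of 8.16 ± 1.14 (SE; adjusted p = 0.0004324 by edgeR) and Myh1 5.85 ± 0.83 (0.0004865), and Myh2 (3.93), Myh7 (3.88) and Myh8 (3.87) were called too. Myh6 (2.06 ± 1.04), Myh13 (1.39 ± 1.19), Myh3 (1.11 ± 1.02) and Myh7b (-1.002 ± 1.29) were not. Without the T3F nerve library, which leaves 1 nerve library, the log2 fold change of Myh4 was 6.80. The calls of Myh1, Myh2, Myh7 and Myh8 did not hold in that fit. Limma called Myh1 and Myh4, where it called 275 of 17564 genes higher. Without liver T3F, lung T3F and pancreas T173F 6 were called, where 1873 of 17711 genes were called higher. Myh6 was the addition (3.82, adjusted p = 0.0191 by edgeR). Without the 8 libraries listed with the heart contrast, nerve T426 among them, 1 nerve library was left. The log2 fold change of Myh13 was then 3.84.

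The partners of fast fibres were all called higher in nerve, 12 of 12, led by Myoz1 (6.16 ± 0.53, SE) and Mylpf (5.27 ± 0.56). Of 10 slow fibre partners only the calcium-binding gene Casq2 was called (6.03 ± 0.58). Its level lay above that of muscle of the same animal. It was 22.4 TPM in nerve T3F against 1.49 TPM in muscle T3F, and 32.3 TPM in nerve T426 against 12.3 TPM in muscle T426. The nerve and femur contrasts were both set against sites that include each other. The 5 Schwann cell markers were called higher in nerve, as were 6 of 7 acinar markers, which summed to 4601 TPM in nerve T3F and 74326 TPM in nerve T426. The skeletal fibre markers summed to 8097 TPM in nerve T3F and 1548 TPM in nerve T426. Of 6 fat cell markers 2 were called higher, with 1896 TPM in nerve T3F and 499.5 TPM in nerve T426 in sum. The part of these cell types and of attached muscle in the members' result was not tested. Bone marrow of T3F had the same leading chain, with Myh4 at 164 TPM (71.0% of the summed chains) and Myh1 at 44.7 TPM, beside 868 TPM of skeletal fibre markers.

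In the central nervous system the leading chain was the slow one. Myh7 led in 10 of 11 brain, spinal cord and optic nerve libraries, and in 3 of 4 libraries of retina and pigment epithelium. The optic nerve had 58.2 TPM of Myh7, 41.3 TPM of Myh1 and 37.1 TPM of Myh6. The spinal cord had 29.6 TPM of Myh7, 18.9 TPM of Myh1 and 17.4 TPM of Myh6, and the pons 23.3, 12.5 and 13.9 TPM of the same chains. The medulla oblongata had 21.3 TPM of Myh7 and the cerebellum 9.64 TPM. The midbrain was the exception, with 8.43 TPM of Myh6 and 6.69 TPM of Myh7. Hippocampus, the site with 2 animals, had 13.1 TPM of Myh7 in T3F and 9.83 TPM in T426. Optic nerve, spinal cord, pons and medulla oblongata thus lay above both cortex libraries and the cerebellum.

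The fast chains Myh2 and Myh4 were low in these 11 libraries. They reached at most 1.41 TPM for Myh2 and 1.63 TPM for Myh4, both in hippocampus T426, where Myh1 had 6.40 TPM. Both were at 0 TPM in the optic nerve, where the detection floor of 3 counts equals 0.309 TPM of Myh2 and 0.181 TPM of Myh4. In the same library the skeletal fibre markers summed to 59.6 TPM, and the myelin gene Mbp had 5281 TPM. Over the 11 libraries, the Pearson correlation of log2(TPM + 1) was 0.977 between Myh1 and Myh7, 0.959 between Myh1 and Myh6 and 0.930 between Myh6 and Myh7. With Mbp it was 0.893 for Myh1, 0.825 for Myh6 and 0.922 for Myh7. The points share an animal in 10 of 11 cases, and the chains share reads, so these correlations are a description. Whether the 3 chains were transcribed or received the reads of another heavy chain was not tested. Myh15, a divergent heavy chain, had its highest level of the series in the same optic nerve library, 28.3 TPM, and was at 0 in 38 libraries.

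**Figure D5:**
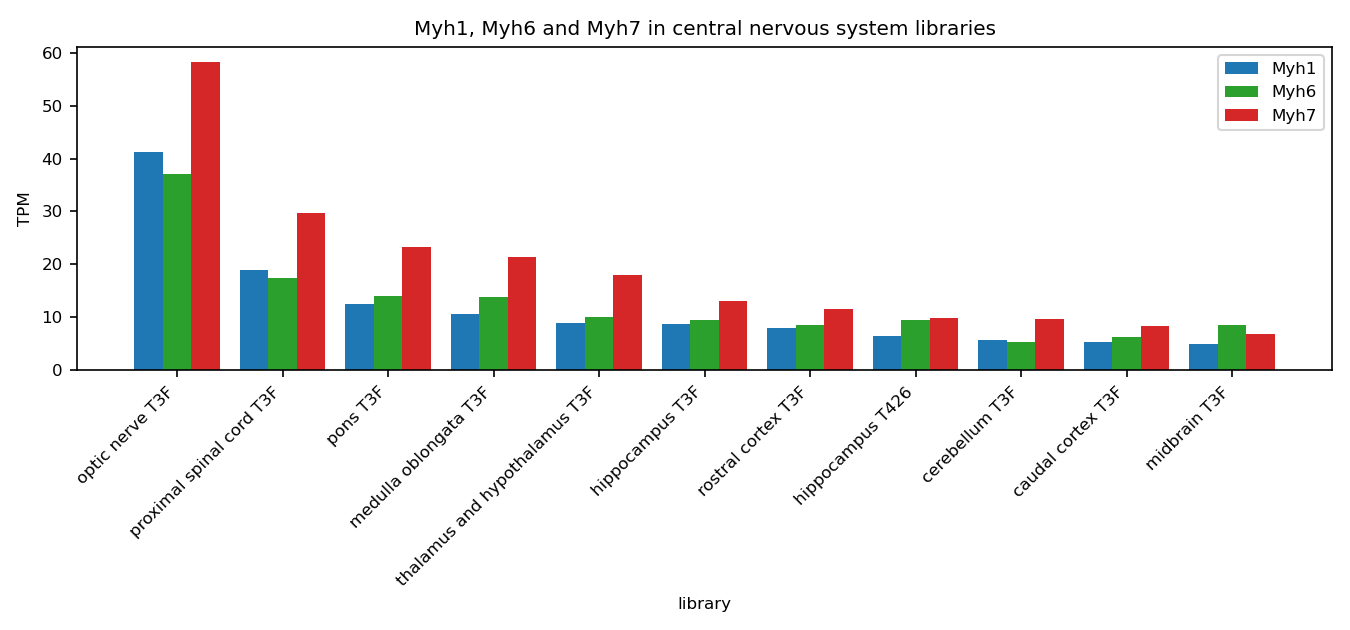
TPM of Myh1, Myh6 and Myh7 (bars from 0) in the 11 libraries of brain, spinal cord and optic nerve, ordered by Myh1. The optic nerve is highest for all 3 chains (41.3, 37.1 and 58.2 TPM), and Myh7 is the tallest bar in 10 libraries, the midbrain being the exception.

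Myh3 was present in the kidney outlet as well as in muscle. It had 40.1 TPM in renal pelvis T173F, from 168 counts, and 44.3 TPM in renal pelvis T426, from 35 counts. In the 4 other kidney libraries it was at or below 3.80 TPM. Against the mean of the 8 other non-muscle sites, a contrast added after these levels were seen, the log2 fold change was 3.60 ± 1.08 (SE; adjusted p = 0.07356 by edgeR) and was not called, where 5.14% of genes were called higher. Without pancreas T173F and the T3F libraries labelled lung and liver it was 4.84 and was called (adjusted p = 0.01649 by edgeR), as it was without either pancreas library or nerve T3F, and DESeq2 gave an adjusted p of 0.1417. Without the 8 libraries listed with the heart contrast, renal pelvis T426 among them, it was 4.71, from 1 renal pelvis library. Against the same mean 0 of 9 members were called by edgeR, with a median log2 fold change of -0.94. Besides Myh3, only Myh4 (0.81) and Myh7b (0.04) lay above 0. Myh7 had -4.45 ± 1.46 (SE; adjusted p = 0.1034 by edgeR). DESeq2 called 1 member lower, where it called 1147 of 17564 genes lower. Pancreas T173F, which is part of that mean, had the third highest Myh3 level of the series, 121 TPM from 66 counts. By counts Myh8 led in pancreas T173F, with 30.2% of the summed counts (95% Wilson interval 25.3% to 35.6%), against 22.1% for Myh3 (17.8% to 27.2%). In renal pelvis T426 Myh4 led by counts with 49.8% (44.4% to 55.3%), and Myh3 took 11.04% (8.05% to 15.0%). That library also held 20775 TPM of hepatocyte markers, and its part in the result was not tested.

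Myh6 led in 9 of the 46 libraries with at least 10 TPM of summed chains, most of them outside muscle. The cecum had 59.2 TPM, the kidney artery library 54.7 TPM, the adrenal gland library under adipose 48.3 TPM, the uterus 22.6 TPM and ovary T173F 22.4 TPM. The kidney artery library also held the heart muscle genes Nppa with 1332 TPM, Myl7 with 67.2 TPM and Myl4 with 45.02 TPM. The cecum held Nppa and Myl7 at 0 TPM. The 8 cardiomyocyte markers summed to 1474 TPM in the kidney artery, with 0 of them at 0, and to 13.5 TPM in the cecum, with 5 at 0. Myh13 likewise was seen in bladder with 26.99 TPM, rectum with 18.9 TPM and colon with 12.2 TPM, beside Myh2 at 22.2 TPM in the rectum.

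The genes whose pattern over the 48 sites was most like each chain were sought, 3 per chain. The measure of likeness was the Pearson correlation of log2(site mean TPM + 1), a description, over genes with at least 10 TPM at some site. Nearest to Myh4 were the calcium store gene Casq1 (0.940), the Z-disc gene Myot (0.932) and the thin filament ruler Neb (0.927). Nearest to Myh2 were the fast calcium pump Atp2a1 (0.939), Neb (0.924) and Myoz3 (0.907), and nearest to Myh1 were Xirp2 (0.920), Smco1 (0.906) and Myot (0.904). Nearest to Myh8 were the giant sarcomere protein Ttn (0.932), Ppp1r3a (0.927) and Trim54 (0.915). Nearest to Myh7 were Hhatl (0.932), Pde4dip (0.911) and Murc (0.890). Nearest to Myh6 were Alpk2 (0.866), Myoz2 (0.862) and Fsd2 (0.851), and nearest to Myh7b were Smyd1 (0.856), Fsd2 (0.855) and Yipf7 (0.842). The correlations were lowest for Myh3, led by Abra (0.824), and for Myh13, led by the actin gene Acta1 (0.784). With Spearman in place of Pearson correlation, 3 of the 27 nearest genes remained.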

How the data were processed

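RNA of 59 libraries was measured. The authors deposited 2 tables of 18970 genes: expected counts, which are estimated by RSEM and can be fractional, and TPM, a length-scaled abundance. Bowtie 0.12.8 and RSEM (version not given) are named in the submitters' processing notes; the transcript assembly or build is not given in the sources used here. Libraries were prepared with a TruSeq polyA protocol, per the labels. The labels' titles gave site and animal, and 0 columns were left without a library.

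For the tests, expected counts were rounded and fitted in edgeR 4.0.16 (R 4.3.3) by its quasi-likelihood method, with TMM scaling, filterByExpr and Benjamini-Hochberg adjustment over all genes. Both retinas of T3F were summed into 1 library. Contrasts of replicated sites used 20 libraries of 10 sites; heart and esophagus contrasts used 58 columns of all libraries, where sites with 1 library borrow the spread of the repeated ones. Calls needed an adjusted p below 0.05 and a log2 fold change of 1 or more in size. Alternatives were DESeq2 1.42.0 (and its size factors in edgeR), limma 3.58.1 with trend on log2 CPM (prior count 2), no filter on low counts, libraries left out, and the animal as a replicate block. Libraries with the same animal label come from the same animal, so the animal pairs them; over 22 pairs of sites their deviations from site means correlated by 0.011 to 0.793 (median 0.1235). Levels are deposited TPM, and 3 counts set the floor of detection. The edgeR procedure was tested on simulated data with the same spread set for every gene. That run does not show how often calls on these libraries are wrong. Tables were read with pandas 2.3.3 in Python 3.11.15.

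The members and lists were chosen with earlier results of these data known. Genes named beside the 9 members were the other class II heavy chains, up to 4 per list and contrast with the smallest adjusted p among called genes (with no test, the highest TPM), and the 3 most like genes per member; beyond this rule, Myl6b, Trim63, Myod1, Tnnt3, Mylpf, Nppa, Myl7, Myl4, Mbp, Mybphl and the slow partners set against muscle were named after their values were seen. No genome sequence of the build was used.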

Additional observations from a re-analysis of the deposited data

Results flagged for a closer look

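In each of 5 organs with 4 to 10 libraries, the highest or lowest library of each chain was compared with its nearest neighbour (45 groups of organ and chain). In 10 of these a library stood apart by Dixon's criterion, which chance would meet in about 1 in 20 groups of normally distributed replicates. The libraries of an organ are different sites, not replicates, so that rate does not apply here.

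Among 4 adipose libraries, the adrenal gland library stood apart for Myh6, with 48.3 TPM against 1.34 TPM in the next, and for Myh13, with 2.70 TPM against 0.184 TPM. Among 6 kidney libraries, the kidney artery stood apart for Myh6, with 54.7 TPM against 4.12 TPM, and for Myh7, with 4.49 TPM against 0.411 TPM, and renal pelvis T426 stood apart for Myh4, with 38.3 TPM against 0.592 TPM. Among 9 brain libraries, the pons stood apart for Myh3, with 6.71 TPM against 1.48 TPM, and hippocampus T426 for Myh13, with 1.20 TPM against 0.201 TPM. That hippocampus value lay at about the detection floor of 3 counts. Among 8 eye libraries, which by their titles include the midbrain, the optic nerve stood apart for Myh1, with 41.3 TPM against 4.85 TPM, and retina T426 for Myh4, with 1.82 TPM against 0.452 TPM. Among 7 intestine libraries, the rectum stood apart for Myh2, with 22.2 TPM against 2.22 TPM.

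The 2 animals moved in opposite ways between skeletal muscle and femur bone for a pair of chains. For Myh6 the log2 difference, muscle minus femur, was -0.36 in T3F and 7.001 in T426. For Myh7b it was -0.45 in T3F and 6.43 in T426. The difference between the animals was not tested.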

How the results depend on the processing

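Of 73 member values, all kept their direction and their side of the threshold without the filter on low counts. The replicate block (animal) changed no call, and 4 uncalled values changed sign under it. DESeq2 size factors in edgeR moved 2, DESeq2 8, the set without 3 libraries 6 and the set without 8 libraries 5. limma moved 15, of which 12 lost the call.

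Counts of members called moved as follows. The counts of all genes called by limma, DESeq2 and the set without 3 libraries stand beside the matching member counts above. In femur bone limma gave 3, and leaving out single libraries gave 3 to 8. In sciatic nerve limma gave 2, and leaving out single libraries gave 1 to 6. For skeletal muscle against femur bone DESeq2 gave 4, the set without liver T3F, lung T3F and pancreas T173F gave 3, the set also without 5 T426 libraries gave 1, and leaving out single libraries gave 0 to 1. For heart against skeletal muscle the counts were 0 with DESeq2 size factors, 4 with DESeq2, 2 with limma, 2 without the 3 libraries and 4 without the 8; leaving out each library gave 0 in every case.

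The values that turned round were not called under the reported settings. In sciatic nerve, limma gave -0.49 for Myh3 and -0.0865 for Myh13. For Myh7 in heart against muscle, DESeq2 size factors gave -0.0816, DESeq2 -0.0818 and the replicate block -0.84. For the right atrium against the right ventricle, the replicate block gave 2.55 for Myh6, 0.21 for Myh7 and 0.70 for Myh7b. With single libraries left out, the values ran between -0.14 and 1.45 for Myh7b in femur bone, -6.07 and 2.02 for Myh3 in nerve, -5.79 and 2.25 for Myh13 in nerve, -0.73 and 1.43 for Myh7 in heart, -0.14 and 4.46 for Myh7b in heart, and -3.87 and 0.73 for Myh7b in esophagus. The cause was not tested. With DESeq2 size factors the median of all genes in the renal pelvis contrast was -0.19, against -0.03 with TMM.

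Shares by counts named the same leading chain as shares by TPM in 35 of 46 libraries. Of the 27 nearest genes named, 18 were kept over 59 libraries, 16 with a pseudocount of 0.1, 27 with no minimum level and 3 with Spearman correlation. Depth limits the T426 values most, and intervals cover counting error only.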
